A study of Arabidopsis thaliana with 24 samples.

Results

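The genes described here are those whose transcripts were high in Arabidopsis seedlings lacking HID1 and were back near the wild-type level when the phil1 mutation was added. They were chosen from the read counts themselves, as CPM, the count of a gene scaled to a common library total. A gene was kept when its mean in hid1 was at least 1 CPM, was at least 1.5 times both the WT and the hid1 phil1 mean, and when each hid1 library lay above each WT and each hid1 phil1 library. HIL1, the locus hit by phil1, was set aside. Of the 33612 features in the count table, 19684 reached the minimum of 1 CPM in hid1 and 187 met the whole rule, 68 of them with a gene symbol. Against WT alone, 345 features met the rule, and 54.2% of these also met it against hid1 phil1.

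HID1 is a noncoding RNA gene known for its part in seedling responses to light. In plants, E2F transcription factors and their partners in the DREAM complex hold cell-cycle genes in check or switch them on, and DNA damage activates another set of genes through the transcription factor SOG1. Retroelements, pseudogenes and some young genes are kept silent by DNA and histone methylation, so that their transcripts are usually scarce.

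Each of 8 genotypes gave 3 libraries of poly(A) RNA, 24 in all, from whole seedlings at 9 days under constant white light. WT was the Col-0 ecotype. The single mutants were hid1, bte1 and btl1, the double mutants were hid1 phil1, bte1 hid1 and bte1 btl1, and the triple mutant was e2fa e2fb e2fc, called e2f here. Both hid1 phil1 and bte1 hid1 carry the hid1 mutation too, and by its label phil1 alters the proximal promoter of HIL1. The alleles, the number of lines behind a genotype and any pooling of seedlings are not stated in the labels. BTE1, BTL1 and PHIL1 are not gene symbols in the reference, and the loci of BTE1 and BTL1 were not identified. In whole seedlings, fewer cells of a type and less RNA per cell cannot be told apart.

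The libraries held 14309396 to 23912716 counted reads, those of btl1 and bte1 btl1 being the smallest. HID1 had no read in hid1 and bte1 hid1, a mean of 0.129 CPM in hid1 phil1, all of it in replicate 2 (9 reads), and a mean of 8.54 CPM in WT (SD 1.5, n = 3). HIL1 had means of 0.746 CPM in btl1, 0.808 in WT, 2.35 in e2f, 3.88 with hid1 alone, 7.79 in bte1 btl1, 9.22 with bte1 alone, 20.9 with both bte1 and hid1, and 27.4 with hid1 and phil1. Summed markers of leaf mesophyll were at 23950 to 29470 CPM in e2f and at 37080 to 53400 CPM in the other genotypes. LHCB1.1, LHCB1.3, LHCB2.1 and PSAD-1 had their lowest means in e2f. The e2f means of RBCS1A (11759 CPM, against 11458 in WT) and CA1 (2365 against 2502) lay within the range of the other genotypes. Summed markers of root and of shoot meristem had reads in each library. Of the meristem markers, WUS had no read in 22 libraries and CLV3 none in 16. Replicate 2 of hid1 phil1 and the e2f replicates differed from the other libraries of their genotype more than replicates elsewhere did. The rule gave 174 members without hid1 phil1 replicate 2 and 261 without hid1 replicate 2, which had the highest sum of seed markers of its genotype. Summed seed and embryo markers stood at 1.04 CPM for hid1 replicate 1, 103.6 for replicate 2 and 12.9 for replicate 3. WT gave 0.126 to 0.827 CPM, and the highest sums elsewhere were 93.3 in btl1, 94.3 in bte1 btl1 and 147.2 CPM in e2f. None of these seed markers is a member, and the part of seed RNA in the results was not tested.

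Members of the DNA damage response and of mitosis have well-studied promoter elements, so the bases before the transcript start are shown for the 4 that hold such an element. Each line gives 250 bases in the direction of transcription from RefSeq's TAIR10.1 assembly. NAC044 is shown at chr3:228825-229074 and GR1 at chr3:19325785-19326034, both on the plus strand, and RAD54 at chr3:6658989-6659238 and CYCB1;1 at chr4:17624309-17624558, both on the minus strand. Capitals mark the SOG1 consensus site (CTT and AAG with 7 bases of any kind between) in the first 3 and, on either strand, the mitosis-specific activator core AACGG in CYCB1;1.
NAC044: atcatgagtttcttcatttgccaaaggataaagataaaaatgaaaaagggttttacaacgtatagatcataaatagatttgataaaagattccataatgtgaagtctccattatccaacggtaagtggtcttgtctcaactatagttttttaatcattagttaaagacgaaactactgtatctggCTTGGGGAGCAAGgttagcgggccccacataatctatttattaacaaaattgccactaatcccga
GR1: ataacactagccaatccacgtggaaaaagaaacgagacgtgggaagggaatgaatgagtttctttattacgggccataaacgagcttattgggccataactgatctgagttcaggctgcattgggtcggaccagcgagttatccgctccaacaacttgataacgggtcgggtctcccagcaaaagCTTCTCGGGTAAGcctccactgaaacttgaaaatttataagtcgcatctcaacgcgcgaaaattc
RAD54: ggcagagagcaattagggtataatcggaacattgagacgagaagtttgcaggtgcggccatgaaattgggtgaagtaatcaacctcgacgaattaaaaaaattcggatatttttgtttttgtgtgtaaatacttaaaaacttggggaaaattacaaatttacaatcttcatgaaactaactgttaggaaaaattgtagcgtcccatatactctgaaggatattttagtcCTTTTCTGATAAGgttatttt
CYCB1;1: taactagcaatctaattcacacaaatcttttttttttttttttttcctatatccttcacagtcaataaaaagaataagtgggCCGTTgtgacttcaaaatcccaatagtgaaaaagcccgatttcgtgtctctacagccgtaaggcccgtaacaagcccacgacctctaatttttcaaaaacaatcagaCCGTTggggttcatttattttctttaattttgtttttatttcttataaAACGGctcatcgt
The SOG1 site starts 65 bases before the transcript start in NAC044 and in GR1, and 21 bases before it in RAD54. CYCB1;1 holds 3 copies of AACGG or its reverse complement, at 168, 61 and 13 bases before the start.

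The SOG1 site was found in 34 of the 186 members with a window of 300 bases around the start (250 before and 50 after), both strands searched. This is 18.3%, against 11.4% of 32842 windows in the annotation and 10.8% of those of genes at the hid1 minimum. AACGG was in 32.3% of the members' windows, 24.8% of all windows and 26.3% of those at the hid1 minimum. The cell cycle homology motif TTTGAA was in 47.8%, 43.1% and 43.8%. An E2F site (TTTCCCGC, TTTGGCGC, TTTGCCGC or TTTCGCGC) was in 6 members, 3.23% against 2.5% of all windows and 1.87% of those at the minimum. The G-box CACGTG was in 8.06% of the members' windows, above the 6.9% of all windows and below the 8.7% of those at the minimum. None of the fixed motifs contains another, though the free bases of the SOG1 site can hold any of the shorter ones. The shares describe letters and were not tested.

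Most members were protein-coding genes with a modest excess in hid1. The 187 held 165 protein-coding genes, a share of 88.2%, against 96.5% of the features at the hid1 minimum. The others were 13 pseudogenes, 5 transcribed pseudogenes, 1 long noncoding RNA, 1 other noncoding RNA, 1 ribosomal RNA and 1 feature not found in the reference. The 13 pseudogenes carry a transcript number in the count table, and such features made up 6.95% of the members and 0.666% of the features at the hid1 minimum. The median member was at 2.07 times its WT level in hid1 (quartiles 1.66 and 3.06) and at 0.959 times WT in hid1 phil1. In hid1, 98 members were at least 2-fold above WT and 35 at least 4-fold, with a median of 3.13-fold for the 13 pseudogenes and 1.97-fold for the protein-coding members. WT held at most 3 reads in total for 4 members, and among the others the highest ratio was 34.1-fold, in RE2. These ratios chose the members and are given with no test.

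The limit of 1.5 cut through a continuum. AT3G23370 and AT4G26810 lay just inside, with 1.5002 and 1.5024 as the smaller of their ratios to WT and hid1 phil1, and AT5G27330 and AT1G52060 just outside, with 1.4991 and 1.4977. Members were spread over the 5 chromosomes, from 24 on chromosome 4 (12.83%) to 48 on chromosome 1 (25.67%). These chromosomes held 15.39% and 26.15% of the features at the hid1 minimum. In the gene order, 15 members formed 7 runs of direct neighbours, and 1 run held 3, the pseudogenes AT3G21010, AT3G21020 and AT3G21030. Since the strand used in counting is not stated, 38 members that overlap a gene on the other strand cannot be told apart from it. Among the genes named here these are GMI1, COR15B, SRO3, BGLU19, GSTF12, MES18, scpl10 and AT5G26270, and 2 pairs of members overlap each other (HCHIB with AT3G12502, and AT2G13430 with AT2G13431).

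**Figure D1:**
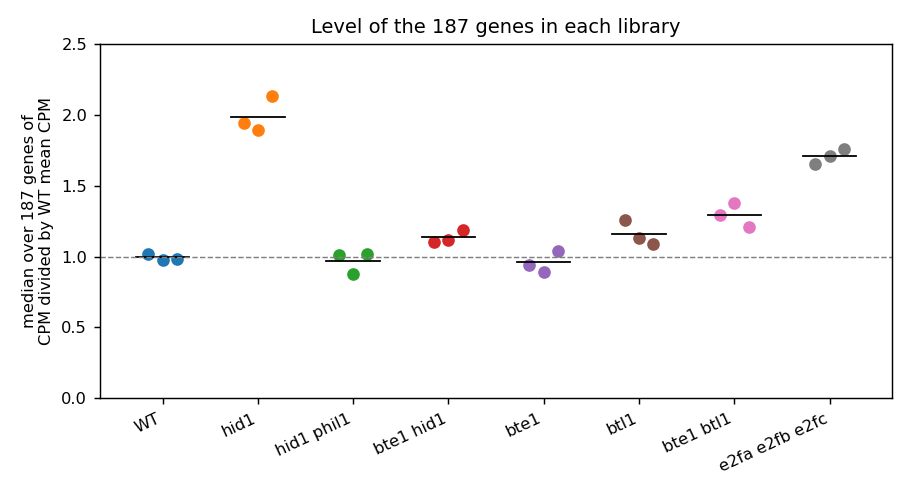
For each of the 24 libraries (points, 3 per genotype, black bars at their mean) the vertical axis gives the median over the 187 genes of a gene's CPM divided by its WT mean. The hid1 libraries lie at 1.89 to 2.13, which the choice of genes fixed, while the bte1 hid1 libraries lie at 1.1 to 1.19 and the e2f libraries at 1.65 to 1.76.

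Taken library by library, the median ratio of the members to their WT mean was 0.874 to 1.02 in hid1 phil1, 0.893 to 1.04 in bte1 and 1.1 to 1.19 in bte1 hid1. It was 1.09 to 1.26 in btl1, 1.21 to 1.38 in bte1 btl1 and 1.65 to 1.76 in e2f. The low value of hid1 phil1 was that of replicate 2. The e2f libraries thus lay above those of all genotypes but hid1. Differences of btl1, bte1 btl1 and e2f from WT or hid1 were not tested. In 8 members each hid1 phil1 library lay above each WT library and in 7 below, where 5.3% and 6.02% of the features at the hid1 minimum did so; these libraries served in the choice of members.

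**Figure D2:**
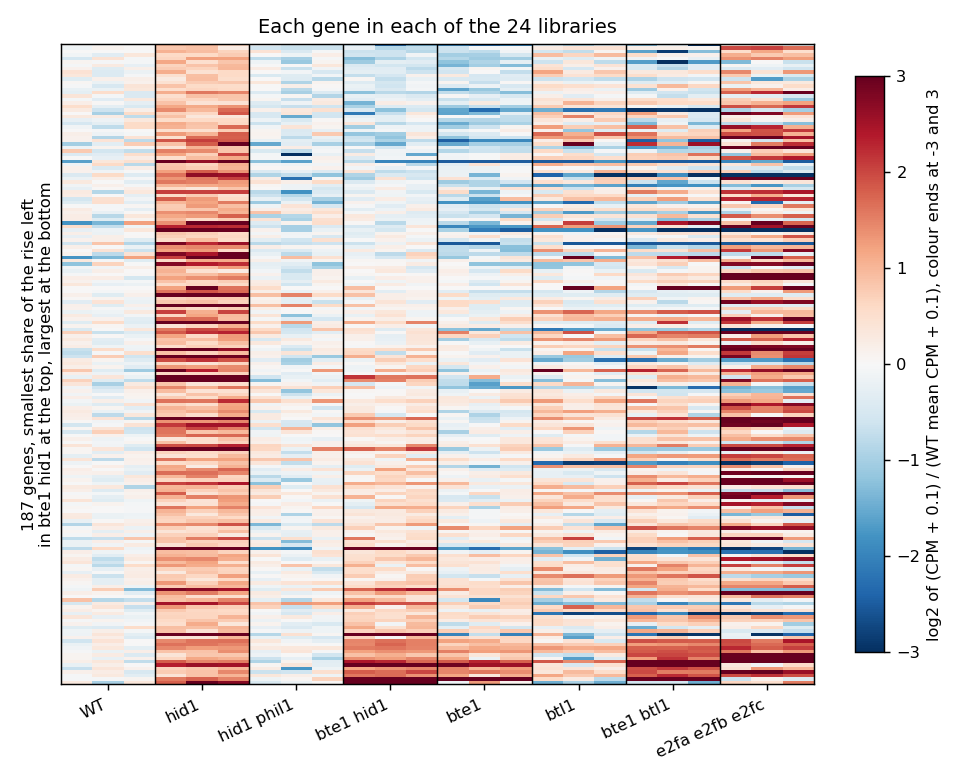
Each row is one of the 187 genes and each column one of the 24 libraries, grouped by genotype. Colour gives log2 of CPM over the WT mean (0.1 CPM added to both), with rows ordered by the share of the hid1 excess left in bte1 hid1. Rows at the bottom are red in bte1 hid1, and many of them in bte1 and bte1 btl1 as well.

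Among the DNA damage response and repair genes, 5 of the 25 measured ones were members. Together they include the transcription factor gene NAC044, GMI1 and RAD54 of homologous recombination, RPA1E for a single-strand DNA binding subunit, and GR1 (COM1) for processing of DNA ends. NAC044 was at 1.04, 1.29 and 0.478 CPM in WT, 10.7, 9.88 and 11.3 in hid1, and 1.15, 0.950 and 1.25 in hid1 phil1. In bte1 hid1 it was at 2.58, 2.46 and 3.33 CPM and in bte1 at 0.809, 0.551 and 0.834. The bte1 hid1 libraries thus lay between those of hid1 and WT with no overlap, and each lay above each bte1 library. In e2f NAC044 was at 28.2, 27.4 and 27.2 CPM, higher than in any other library.

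GMI1 was at 10.2, 10.4 and 7.44 CPM in WT, 30.4, 29.4 and 26.2 in hid1, and 8.20, 8.37 and 8.63 in hid1 phil1. It lay at 15, 13.5 and 17.5 CPM in bte1 hid1 and at 9.67 to 11.4 in bte1, and at 72, 74.5 and 83.2 in e2f. RPA1E was at 4.99, 5.01 and 6.11 CPM in hid1 against 2.55 to 2.70 in WT, and at 2.60 to 2.76 in bte1 hid1. Its bte1 hid1 libraries fell within the range of bte1 (2.34 to 2.98 CPM), and its e2f libraries were at 31.1 to 35.1. GR1 and RAD54 had smaller excesses, with hid1 means 1.59 and 1.57 times WT. GR1 libraries of hid1 were at 2.91 to 4.30 CPM against 1.76 to 2.4 in WT, and those of RAD54 at 7.34 to 8.35 against 4.66 to 5.90.

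Of the 21 genes of that list at the hid1 minimum, the 5 members included, 17 had a hid1 mean above the WT mean, with a median ratio of 1.19 (1.01 over all 19684 features). None but the members reached 1.5, and PARP2, BARD1 and BRCA1, all of DNA repair, were next at 1.48, 1.47 and 1.42. Below the minimum, NAC085, a close relative of NAC044, had a mean of 0.464 CPM in hid1 and 0.0148 in WT. SMR4, SMR5 and SMR7, for cell-cycle inhibitors, were below it too, with means of 0.235, 0.481 and 0.753 CPM in hid1. Their WT means were 0.127, 0.418 and 0.836 CPM, and SMR4 was higher in hid1 phil1 (0.328) than in hid1. Genes of mitosis and cytokinesis showed a small common excess, since all 34 measured ones had a hid1 mean above WT, with a median ratio of 1.37 in hid1, 1.04 in hid1 phil1 and 1.04 in bte1 hid1. Only 6 of them reached 1.5 against WT, and 1 met the whole rule, the B-type cyclin gene CYCB1;1. CYCB1;1 was at 14, 11.1 and 13.6 CPM in hid1, 6.94, 6.92 and 6.66 in WT, 7.93, 6.99 and 7.47 in hid1 phil1, and 8.36, 8.20 and 11.1 in bte1 hid1. Of the 22 DNA replication genes, none was a member. Their median ratio to WT was 1.18 in hid1, 0.966 in hid1 phil1 and 1.18 in bte1 hid1. The 21 DNA damage genes had medians of 0.943 in hid1 phil1 and 1.13 in bte1 hid1, and all 19684 features 0.984 and 1.03.

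Loci that are usually silent held the largest ratios. QQS, a young gene that affects starch content and varies in methylation between plants, was at 37.5, 34.8 and 32.9 CPM in hid1. Its other values were 0.836, 2.35 and 1.35 CPM in WT, 0.369, 0.345 and 1.39 in hid1 phil1, and 0.405, 0.230 and 0.439 in bte1. In bte1 hid1 QQS stayed at 12.3, 15.6 and 24 CPM, below each hid1 library and far above each WT and bte1 library. SADHU3-2, a Sadhu retroelement, was at 10.6, 13.1 and 9.69 CPM in hid1 and at 8.13, 7.88 and 16.2 in bte1 hid1, where the libraries overlapped those of hid1. It was at 0.522 to 0.887 CPM in WT and at 0.0878 to 0.368 in bte1. The copia-type retrotransposon RE2 was at 3.43, 4.66 and 3.78 CPM in hid1, at 0.0836 to 0.177 in WT and at 0.547 to 0.859 in bte1 hid1. These 3 were the members among the 8 measured loci of the list of silenced and epigenetically variable loci, and the other 3 of its loci at the hid1 minimum had hid1 means below WT.

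Among the 3 neighbouring pseudogenes, AT3G21010 was at 2.17 to 3.56 CPM in hid1 and 0.976 to 1.97 in WT, AT3G21020 at 1.24 to 1.36 and 0.621 to 0.870, and AT3G21030 at 1.39 to 2.11 and 0.488 to 0.586. Their bte1 hid1 means were 1.47, 1.36 and 0.817 times WT. A pair of adjacent members on chromosome 3, the pseudogene AT3G62455 and the protein-coding AT3G62460, had high levels in bte1 as well and are counted with that class.

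**Figure D3:**
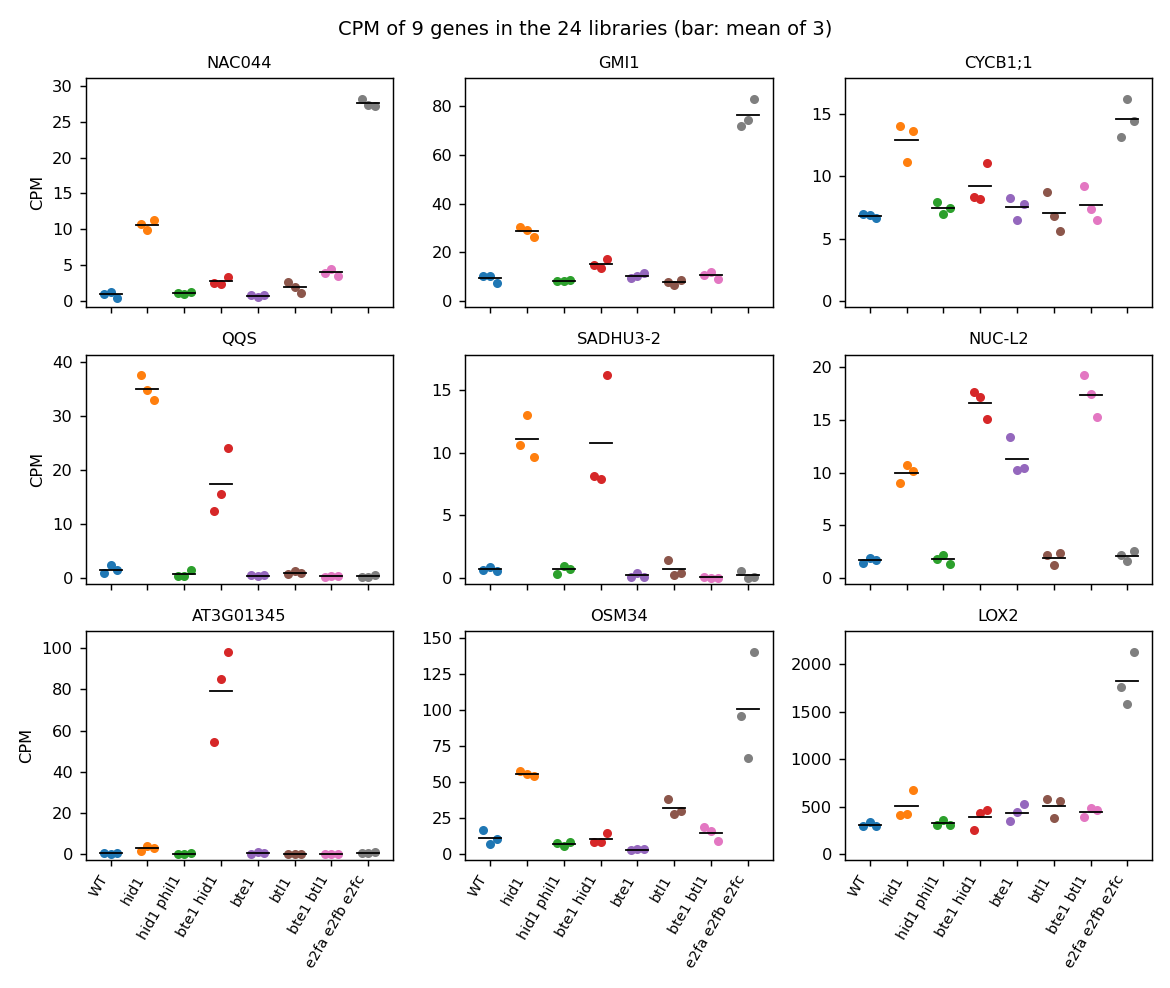
CPM (vertical axes, linear, each from about 0) of 9 genes in the 24 libraries; points are libraries and black bars the means of 3. QQS and SADHU3-2 are high in hid1 and bte1 hid1 only among the genotypes shown, AT3G01345 is high in bte1 hid1 (54.7 to 98.4 CPM), NUC-L2 is also high in bte1 and bte1 btl1, and NAC044, GMI1, OSM34 and LOX2 are highest in e2f.

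Loss of BTE1 in hid1 seedlings went with levels near WT for most members. For each gene the share of the hid1 excess left was taken as the difference of bte1 hid1 from WT over that of hid1 from WT. The median share left was 10.95%, and 7.52%, 9.41% and 13.9% when each bte1 hid1 library was used alone. The share was under 25% for 120 members, 25 to 75% for 45 and over 75% for 22, and 61 members lay below their WT mean. In 136 members each bte1 hid1 library lay below each hid1 library, where 12.6% of the features at the hid1 minimum did so, and in 50 each lay above each WT library, where 15.9% did. This comparison shares the hid1 and WT libraries with the choice of members, which favours genes that happened to be high in hid1, and is given with no test.

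**Figure D4:**
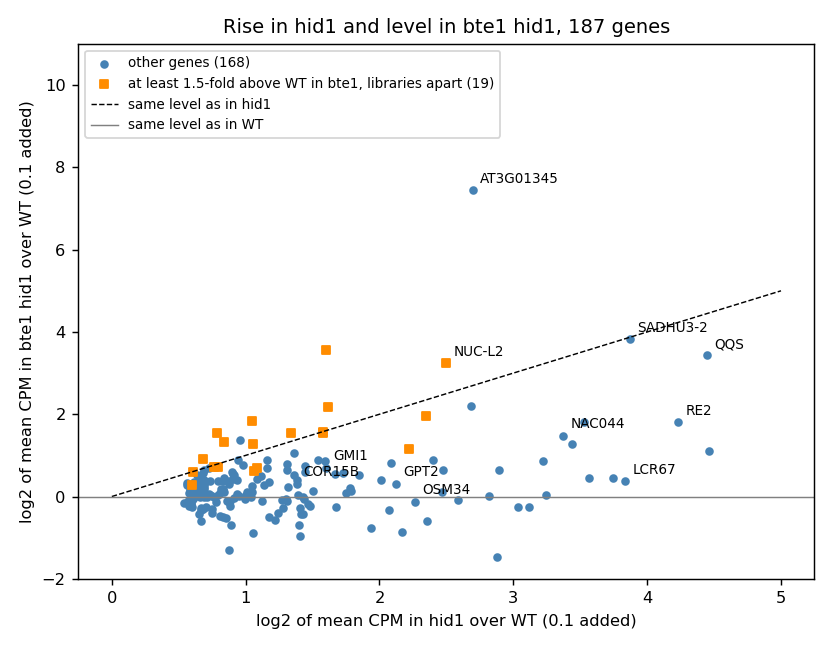
Each point is one of the 187 genes, with log2 of mean CPM over WT in hid1 on the horizontal axis and in bte1 hid1 on the vertical axis (0.1 CPM added to each mean). Most points lie near the grey line of equal level to WT, whereas 14 of the 19 genes that were also high in bte1 (orange squares) kept over 75% of the excess and AT3G01345 lies far above the dashed line of equal level to hid1.

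Comparing bte1 hid1 with bte1, 2 genotypes the choice of members did not use, asks whether loss of HID1 still raises these genes where BTE1 is lost. In edgeR's quasi-likelihood test with Benjamini-Hochberg adjustment over 21897 genes, 10 members were higher and 0 lower in bte1 hid1, where 0.146% of all genes tested were higher and 0.0776% lower. The median log2 difference was 0.30 over the members and 0.0015 over all genes, and 142 members (75.9%) had a value above 0, as did 50.4% of all genes. At an unadjusted p under 0.05, 57 members (30.5%) were higher and 1 (0.535%) lower, against 3.8% and 3.34% of all genes. The count of 10 was 6 without bte1 replicate 3, and 1 member was called lower without bte1 hid1 replicate 1. DESeq2 called 17 higher and 1 lower. In 60 members each bte1 hid1 library lay above each bte1 library and in 1 below, where 11.5% and 5.76% of the features at the hid1 minimum did so.

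The 10 called members include QQS and SADHU3-2 of the silenced loci described above, but not RE2, and the DNA damage gene NAC044. QQS rose by 5.54 on the log2 scale (SE 0.45, edgeR adjusted p = 2.82e-07) and SADHU3-2 by 5.83 (SE 0.62, edgeR adjusted p = 1.94e-05). NAC044 rose by 1.89 (SE 0.26, edgeR adjusted p = 0.00018). ACC2, for an acetyl-CoA carboxylase, rose by 0.79 (SE 0.13), from 12.5, 11.9 and 13.8 CPM in bte1 to 21.1, 21.9 and 24.5 in bte1 hid1, with hid1 at 43.9, 51.8 and 50.6. These 4 and AT3G01345 were called in each of the 6 fits that left out 1 library of the 2 genotypes and in each of the 5 other alternatives. Most of the 10 called members, namely AT3G01345, NAC044, QQS, AT3G41979, SADHU3-2, AT3G42806 and AT3G62455, lie on chromosome 3. That chromosome held 22.99% of the members and 19.61% of the features at the hid1 minimum. ACC2, COR15B and AT5G26270 lie on other chromosomes. Whether position had a part in the calls was not tested.

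AT3G01345, an uncharacterized protein-coding gene, was 1 of 8 members with each bte1 hid1 library above each hid1 library, and NUC-L2 and AT5G25230, described further on, were others. It was at 1.48, 4.17 and 2.95 CPM in hid1 and at 0.133 to 0.478 in WT, but at 54.7, 85.0 and 98.4 in bte1 hid1, against 0.315, 1.01 and 0.395 in bte1. The log2 difference between bte1 hid1 and bte1 was 7.08 (SE 0.37, edgeR adjusted p = 5.98e-10). Its level in bte1 hid1 was above that in each library of the other 7 genotypes, where the highest value was 4.17 CPM.

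The calls of the other 5 members depended on single libraries, though their log2 differences stayed above 0 in each alternative. All but the last also lost the call when the fit held only bte1 hid1 and bte1. The cold-regulated gene COR15B (log2 1.74) lost its call without bte1 hid1 replicate 1 or without any 1 of the 3 bte1 replicates. AT5G26270, of unknown function (0.81), lost it without bte1 hid1 replicate 1 or 2 or bte1 replicate 2 or 3, and the pseudogene AT3G62455 (0.68) without bte1 hid1 replicate 2 or bte1 replicate 1. The pseudogene AT3G42806 (0.95) lost it without bte1 hid1 replicate 2 or bte1 replicate 3. AT3G41979, a 5.8S ribosomal RNA gene (1.25), lost it without any 1 of the 6 libraries, and with no filter on low counts, while its log2 difference stayed between 1.19 and 1.28. Its reads in libraries made from poly(A) RNA were at 48.7 to 55.4 CPM in bte1 hid1, 19.6 to 21.8 in bte1 and only 2.87 to 7.32 in the 9 libraries of btl1, bte1 btl1 and e2f. Reads of such a multicopy RNA cannot be assigned to 1 gene.

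Members not called included GMI1, with a log2 difference of 0.51 (SE 0.12, edgeR adjusted p = 0.103), although its bte1 hid1 and bte1 libraries did not overlap. The osmotin-like gene OSM34 had 1.68 (SE 0.39, edgeR adjusted p = 0.111) and RE2 1.93 (SE 0.54, edgeR adjusted p = 0.247). DESeq2 called GMI1 and OSM34, and RE2 passed in edgeR without bte1 replicate 2. RPA1E, GR1, RAD54 and CYCB1;1 were not called under the main test.

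Members also differed in their level in bte1 itself. In bte1, 19 members lay at least 1.5-fold above WT and 28 at least 1.5-fold below it, with no overlap of libraries, where 1.44% and 1.04% of the features at the hid1 minimum did so. Of the 19 high in bte1, 14 kept over 75% of the hid1 excess in bte1 hid1, out of 22 members that did. Of the 10 members called higher in bte1 hid1 than in bte1, 5 were among the 28 low in bte1 (QQS, SADHU3-2, COR15B, AT5G26270 and AT3G42806), 2 among the 19 high in bte1 (AT3G62455 and AT3G41979) and 3 in neither class. The WT libraries enter both these classes and the choice of members. The bte1 libraries enter both these classes and the test against bte1. That favours a higher call for genes that happened to be low in bte1.

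The nucleolin gene NUC-L2 was among the 19 and is given as an example, not as typical of them. It was at 1.42, 1.91 and 1.70 CPM in WT, 8.99 to 10.7 in hid1 and 1.34 to 2.2 in hid1 phil1, but also at 13.3, 10.2 and 10.4 in bte1 and 17.7, 17.1 and 15.1 in bte1 hid1. Its bte1 hid1 libraries lay above all hid1 and all bte1 libraries. AT5G25230, for a protein of the elongation factor G family, was at 2.59 to 3.16 CPM in hid1, 9.19 to 10.4 in bte1 and 10.9 to 11.9 in bte1 hid1, against 0.836 to 0.913 in WT. ATXR6, for a methyltransferase of histone H3 lysine 27, was at 2.90 to 3.78 CPM in hid1, 2.65 to 3.08 in bte1 and 1.51 to 2.34 in WT. The chromatin remodelling gene chr31 was at 3.06 to 3.91 CPM in hid1 and 1.00 to 1.46 in WT, and its bte1 libraries at 1.53 to 2.11 lay just above WT but under the 1.5-fold limit.

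The effect of bte1 on the members was measured again in the btl1 background, in libraries used neither by the choice of members nor by the comparison of bte1 with WT. Between bte1 btl1 and btl1, 27 members were higher and 5 lower (edgeR), where 3.37% and 1.12% of all genes were, with a median log2 difference of 0.14 over the members and -0.0025 over all genes. Libraries did not overlap for 45 members that were higher and 24 that were lower, where 9.78% and 15.1% of the features at the hid1 minimum behaved so. Of the 19 members high in bte1, 15 were among the 27, and the 5 called lower were all among the 28 low in bte1. NUC-L2 rose from 2.17, 1.18 and 2.32 CPM in btl1 to 19.3, 17.5 and 15.3 in bte1 btl1 (log2 3.24, SE 0.21, edgeR adjusted p = 6.98e-11), and chr31 rose by 1.71 (SE 0.23). Of the DNA damage members, GR1 rose by 1.22 (SE 0.22), RAD54 by 0.79 (SE 0.11), NAC044 by 1.12 (SE 0.24) and GMI1 by 0.50 (SE 0.14, edgeR adjusted p = 0.0404). RPA1E was not called. ATXR6 rose by 1.01 (SE 0.24, edgeR adjusted p = 0.0101).

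Calls of GMI1 in this comparison ended with a replicate block (adjusted p = 0.0559 in edgeR) and without bte1 btl1 replicate 1 or 2 or btl1 replicate 1 or 2, and those of ATXR6 without bte1 btl1 replicate 1 or 3 or btl1 replicate 2 or 3. QQS and SADHU3-2, high in bte1 hid1, were at 0.138 to 0.349 and 0 to 0.0688 CPM in bte1 btl1 and were not called. In the whole DNA damage list, 11 of 25 genes rose and 0 fell in bte1 btl1 against btl1, with a median log2 of 0.57, and in the mitosis list 7 of 34 rose and 1 fell (median 0.34). Among 22 DNA replication genes, none of them a member, 18 rose (median 0.64). In bte1 hid1 against bte1 the same lists had 1, 0 and 0 genes higher, with medians of 0.06, 0.09 and 0.02.

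**Figure D5:**
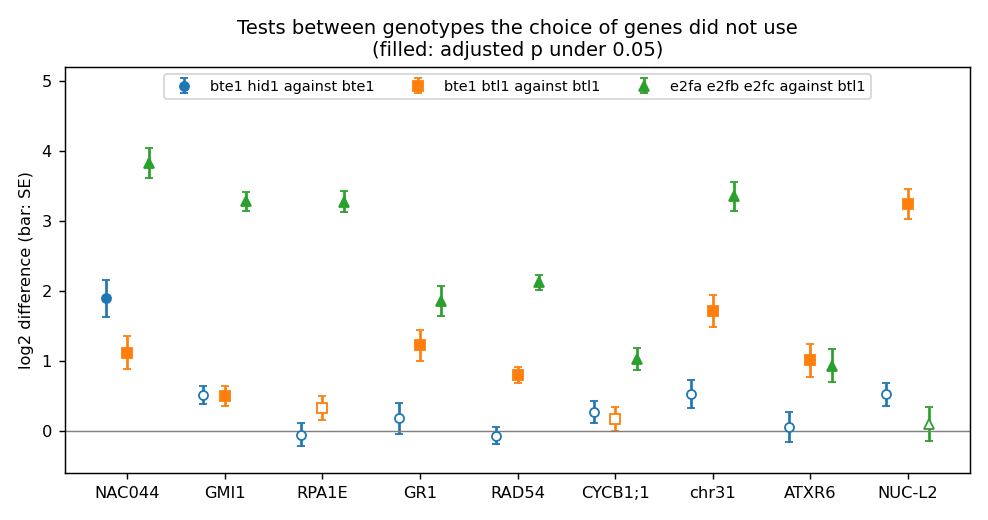
Log2 differences (points) and their SE (bars) of 9 members in the 3 tests between genotypes that the choice of members did not use; filled symbols passed the adjusted p of 0.05 in edgeR. NAC044 is filled in all 3, while RPA1E and CYCB1;1 are filled only for e2f against btl1, at 3.27 and 1.02.

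In the e2f triple mutant the DNA damage members were far above btl1, the genotype set against it here; this does not compare e2f with WT. The mesophyll marker sums given above are also lower in e2f than in btl1, and their part in these differences was not tested. NAC044 rose by 3.83 on the log2 scale (SE 0.21), GMI1 by 3.28 (SE 0.13), RPA1E by 3.27 (SE 0.15), RAD54 by 2.12 (SE 0.11) and GR1 by 1.85 (SE 0.21, edgeR adjusted p = 1.18e-07, the largest of the 5). CYCB1;1 rose by 1.02 (SE 0.16), chr31 by 3.35 (SE 0.21) and ATXR6 by 0.93 (SE 0.23). NUC-L2, at 2.12, 1.55 and 2.51 CPM in e2f, overlapped btl1 and WT and was not called. Of the whole DNA damage list 21 of 25 genes rose and 1 fell (median 2.14), and of the mitosis list 30 of 34 rose (median 0.78).

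Over the whole set, 80 members were higher and 16 lower in e2f than in btl1 (edgeR), with a median log2 difference of 0.49, against -0.0143 over all genes. Libraries did not overlap for 84 members that were higher, where 29.8% of the features at the hid1 minimum were, and for 22 that were lower, where 26.4% were. A large part of the transcriptome differed here, since 26.4% of all genes were higher and 24.8% lower. QQS fell by 2.0 (SE 0.73, edgeR adjusted p = 0.0282), a call that ended without btl1 replicate 2 or 3 or e2f replicate 1 or 2.

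The members from the jasmonate and defence lists were highest in e2f. LOX2, a lipoxygenase of jasmonate synthesis, was at 411.9, 421.7 and 674.7 CPM in hid1 and 299.9, 335.2 and 301.7 in WT, and its libraries in bte1 hid1, at 254.1 to 469.5, overlapped both. In e2f it was at 1582 to 2133 CPM, 1.82 above btl1 on the log2 scale (SE 0.24). The jasmonate repressor JAZ5 was at 0.791 to 2.21 CPM in hid1 and 0.532 to 0.609 in WT and rose by 1.97 in e2f (SE 0.28). PAD3, for an enzyme of camalexin synthesis, was at 5.18 to 9.16 CPM in hid1, 2.13 to 2.93 in WT and 2.85 to 3.01 in bte1 hid1, and rose by 1.77 in e2f (SE 0.24). These were 2 of 16 measured jasmonate genes and 1 of 13 genes of salicylic acid and defence. Higher levels in e2f than in btl1 were shared by the whole lists. Of 15 jasmonate genes tested 11 were higher and 0 lower (edgeR), with a median log2 of 0.73. Of the 13 genes of salicylic acid and defence 11 were higher and 0 lower, with a median of 1.54.

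OSM34, which belongs to the osmotin family of defence proteins, was at 57.8, 55.8 and 54.2 CPM in hid1, 7.05 to 17.1 in WT and 8.18, 8.80 and 14.8 in bte1 hid1. It was lowest in bte1, at 2.88 to 3.45 CPM, and reached 67.1 to 140.7 in e2f (1.64 above btl1 on the log2 scale, SE 0.30). SRO3, a relative of the stress regulator RCD1, was at 1.35 to 1.81 CPM in hid1 and 0.126 to 0.348 in WT and rose by 2.83 in e2f (SE 0.41); it was the 1 member among 12 measured genes of mitochondrial and oxidative stress. NIT2, for a nitrilase, was at 14.2 to 21.6 CPM in hid1, 9.49 to 11.3 in WT and 105.2 to 268.2 in e2f, where it was 5.11 above btl1 on the log2 scale (SE 0.31).

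Several members named for their ratio or their level take part in metabolism, the cell wall or lipid transport. GPT2, a plastid glucose 6-phosphate transporter, was at 2, 2.55 and 2.80 CPM in hid1, 0.266 to 0.836 in WT and 0.501 to 0.700 in bte1 hid1, and rose by 3.98 in e2f against btl1 (SE 0.35). XTH31, for a xyloglucan-modifying enzyme, was at 178.4 to 215.1 CPM in hid1, 77.9 to 122.1 in WT and 90.9 to 102.9 in bte1 hid1. It fell by 0.53 in e2f (SE 0.16), a call lost without e2f replicate 3. The lipid transfer protein gene LTP2 was at 140.4 to 203.4 CPM in hid1, 80.3 to 86.3 in WT and 66.3 to 93.2 in bte1 hid1, and rose by 1.05 in e2f (SE 0.25). OEP6, for a chloroplast outer envelope protein, was at 448.8 to 589.2 CPM in hid1, 301.4 to 340.6 in WT and 340.4 to 381 in bte1 hid1, and fell by 1.11 in e2f (SE 0.11). DOX1, for a fatty acid dioxygenase, was at 77.9 to 102.1 CPM in hid1 and 41.7 to 59.8 in WT, with bte1 hid1 at 47.1 to 58.6.

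Among the members of at least 5 CPM that have a gene symbol, those with the lowest shares left were below WT on average in bte1 hid1. DFR, an enzyme of anthocyanin synthesis, was at 8.86, 8.35 and 19.9 CPM in hid1, 5.44, 2.71 and 8.13 in WT and 1.18, 3.33 and 6.87 in bte1 hid1. GSTF12, a glutathione transferase needed for anthocyanin storage, was at 5.01 to 9.32, 1.6 to 4.18 and 1.31 to 2.51 CPM in these genotypes. For the acyl desaturase gene ADS4 the mean share was -32.8%, for the carboxypeptidase-like scpl10 -25.3%, for DFR -23.6%, for GSTF12 -17.4% and for the methylesterase gene MES18 -15.7%. DFR, the 1 member among 9 measured flavonoid genes, rose by 1.89 in e2f (SE 0.59, edgeR adjusted p = 0.0128). The highest shares among these members with a symbol were those of NUC-L2 with 181.5%, SADHU3-2 with 96.5%, TBL26, of a cell wall acetylation family, with 55.6%, QQS with 47.1% and MAP1B, a methionine aminopeptidase, with 45.5%. Of all members of at least 5 CPM, 9 kept over 75%. MAP1B fell by 0.85 in e2f against btl1 (SE 0.24), and ACC2 rose by 0.90 (SE 0.13).

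A pair of members was high in several of the libraries with high seed marker sums, and the part of seed RNA in them was not tested. LCR67, of a family of small cysteine-rich proteins, had no read in WT and was at 0.130, 3.65 and 0.207 CPM in hid1 replicates 1, 2 and 3. Replicate 2 had the highest seed marker sum of the hid1 libraries. LCR67 was at 33.3 CPM in bte1 btl1 replicate 3 and 2.1 in btl1 replicate 2, also libraries with high seed sums. It was at 0.320 CPM in e2f replicate 2, which had the highest sum of all libraries. BGLU19, a beta-glucosidase gene, was at 3.65, 13.3 and 8.60 CPM in hid1, with 12.3 in btl1 replicate 2, 13 in bte1 btl1 replicate 3 and 12.7 in e2f replicate 2. Its WT libraries were at 0.167 to 2 CPM. No gene of the seed maturation list met the rule, and neither did any of the lists of nitrate and phosphate supply, iron deficiency, heat shock, hypoxia and sugar starvation, light signalling or the circadian clock. Yet all 6 seed maturation genes at the hid1 minimum had a hid1 mean at least 1.5 times the WT mean. The seed marker sums of the hid1 libraries differed widely, as given above.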

How the data were processed

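Gene-level read counts and FPKM values of 24 Arabidopsis seedling libraries were used as deposited. The deposited count table has whole-number raw counts of 33612 features, as the authors obtained them. FPKM, the authors' values scaled by length and library for 55721 features, were deposited beside it and served only as an alternative scale for choosing members. Per the submitters' processing notes, reads were handled with fastp, HISAT2 2.1.0 and SAMtools 1.6 on TAIR10. The counting tool and its strand setting are not given in the sources used here. Alignments were not repeated.

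CPM are counts divided by the library total. Differences were tested on the counts (R 4.3.3, edgeR 4.0.16) with a robust quasi-likelihood fit over the 24 libraries. TMM scaling gave factors of 0.922 to 1.03. The filterByExpr step, run by genotype, kept 21897 genes and removed 11715 features, and p-values were adjusted by Benjamini-Hochberg, with calls under 0.05. All 187 members passed the filter, and 181 passed with the hid1 libraries set aside. A fold difference of a member is a ratio of mean CPM, and a log2 difference is the fitted value. The 3 tests were made between genotypes outside the rule, bte1 hid1 against bte1, bte1 btl1 against btl1 and e2f against btl1. Because the labels call the libraries biological replicates without saying more, p-values measure the spread between these samples. CPM precision is limited by counting at low levels: 1 read in the smallest library is 0.0699 CPM.

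The members, the gene lists and the tests were chosen with earlier results of these data known. The 15 lists held 240 genes, 218 of which were matched to a feature, and 3 symbols that the reference gives to other genes were dropped. Members named in the text are, among those with a symbol, the 10 with the highest ratio of hid1 to WT (0.1 CPM added), up to 6 from each list, the 5 with the most CPM in hid1, those with the smallest adjusted p in each test (5 in each direction for bte1 hid1 against bte1, 4 for the others), and the 5 lowest and 5 highest shares left among members of at least 5 CPM. The genes nearest the 1.5-fold limit and runs of 3 neighbours are named too. AT3G01345, AT5G25230, NIT2, ATXR6, AT3G62455, AT3G62460, AT3G42806, AT5G26270, AT3G41979, ATC and members named for overlapping genes were added after their values were seen.

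Counts were simulated once with these libraries' depth and spread. The test of bte1 hid1 against bte1 recovered 46.3% of genes changed 1.5-fold, 83.6% changed 2-fold and 98.5% changed 4-fold. False calls made up 0.654% of its calls. The changed genes were drawn only from those above a minimum read count, so these rates do not cover members with fewer reads. Names, biotypes and promoter letters came from TAIR10.1, which matched 186 members. The fits were repeated with DESeq2 1.42.0, with RLE factors, without the filter, on the compared genotypes alone, with a replicate block and with each library left out. The choice of members was repeated with TMM-scaled CPM, other limits and, chosen after seeing the data, members picked without hid1 replicate 2 or without hid1 phil1 replicate 2. No per-sample column was left out.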

Additional observations from a re-analysis of the deposited data

Results flagged for a closer look

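ATC, a relative of the flowering regulator TFL1 also called centroradialis, was the 1 member with each bte1 hid1 library below each bte1 library, whereas each hid1 library lay above each WT library. Other members had a negative log2 difference between bte1 hid1 and bte1 but overlapping libraries. It was at 9.98, 14.5 and 14.8 CPM in hid1, above 8.41, 6.52 and 5.22 in WT, whereas in bte1 hid1 it was at 7.05, 7.02 and 6.22, below 7.42, 7.17 and 8.07 in bte1. The log2 difference between bte1 hid1 and bte1 was -0.189 (SE 0.17, edgeR adjusted p = 0.882), which did not pass the threshold, and the difference between the backgrounds was not tested. All 187 members were looked at for libraries that did not overlap, and in hid1 against WT the direction was fixed by the choice of members.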

How the results depend on the processing

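The number of members was 172 with TMM-scaled CPM and 181 on the deposited FPKM values, 88 when at least 2-fold was asked, 80 with a mean hid1 CPM of 5 or more, and 174 to 270 with 1 library left out. Members called higher in bte1 hid1 against bte1 numbered 17 with DESeq2 and 6 to 9 with 1 library left out, and members called lower 1 with DESeq2 and 0 to 1 with 1 left out. In bte1 btl1 against btl1 the lower calls were 13 with DESeq2 and 9 with only the 2 genotypes fitted, and 5 to 6 with 1 library left out. The higher calls there were 22 to 25, and in e2f against btl1 75 to 80 higher and 12 to 17 lower, with 1 left out. In alternatives chosen after seeing the data, members picked without hid1 replicate 2 gave 10, 34 and 113 higher and 0, 5 and 29 lower calls in the 3 tests, and members picked without hid1 phil1 replicate 2 gave 10, 28 and 81 higher and 0, 6 and 12 lower. The median log2 difference of bte1 hid1 against bte1 was 0.219 to 0.337, and the median share left 8.99% to 13.6%, over the alternatives. For these changes the cause was not tested.

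Libraries with the same number were not paired by any label. The correlations of same-numbered libraries were 0.0855, 0.118 and 0.163 in bte1 hid1 and bte1, each library correlating best with its own number, and not all positive in bte1 btl1 against btl1 and e2f against btl1. With the replicate block the counts were 12 higher and 0 lower, 25 and 6, and 80 and 17 in the 3 tests, and the medians 0.305 for bte1 hid1 against bte1. Of 473 values of named genes under alternatives, 432 stayed on their side of the threshold, 37 lost a call, 4 gained one and 0 changed sign. Counting limits the low members most, since 53 had a mean hid1 level of 1 to 2 CPM.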
